A study of Rattus norvegicus with 9 samples.

Results

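Brain transcriptomes of rats treated with rt-PA were compared with those of rats treated with saline, using the 6 libraries whose sample titles carry these 2 names, of 9 libraries in the series. All animals went through a modelling step, left undescribed in the labels, received their injection 4.5 h later and gave brain tissue 3 days after that. Saline is the vehicle group and rt-PA the drug group, with 3 libraries each, and the sources used here give no strain, age, sex or brain region. The 3 rt-PA libraries are headed uk in the count table and in their sample descriptions, and which agent they received beyond the title rt-PA was not resolved. The remaining 3 libraries, from Nano-patrol+NIR animals, were not part of the contrast. They entered the abundance filter that chose the tested genes, the scaling of the libraries and the estimate of the spread between libraries. No unoperated or undamaged brain was analysed here, so every value below is drug against vehicle in animals that had all been through the modelling step.

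rt-PA is recombinant tissue plasminogen activator, a serine protease that cuts plasminogen to plasmin, which in turn digests the fibrin of a clot. The same protease is made in the brain by neurons, glia and endothelium, where it also acts on extracellular matrix, growth factor precursors and cell surface receptors. The comparison therefore asks what brain RNA looks like days after a thrombolytic as opposed to vehicle, and whether the libraries of the drug group resemble one another.

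Genes are given as Ensembl rat identifiers, as in the count table. None of the identifiers could be paired with a gene symbol, because 0 of the 47357 rat genes in the reference table carry an Ensembl identifier. The functions of the genes that differed were therefore not analysed here, the 55 gene lists prepared for brain cell types and pathways were not tested, and the labelled tissue was not checked against brain markers. What follows describes how many genes moved, by how much, and in which of the rt-PA libraries. Identifiers are printed for 4 genes.

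The table listed 32623 genes, of which 15402 were abundant enough to be tested, and the 6 libraries held 13102497 to 14992109 counts. One library stood apart in each group. rt-PA 3 lay at least 2-fold from both other rt-PA libraries at 3038 genes (19.7%), against 318 for rt-PA 1 and 473 for rt-PA 2. Saline 1 lay at least 2-fold from both other saline libraries at 2345 genes (15.2%), against 207 for saline 2 and 156 for saline 3. Some of the counts of genes outside the saline range, of large differences and of calls were repeated without saline 1 or rt-PA 3. Where this was done, those values stand beside them, and the other counts have no such repeat.

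A single gene passed the test across all 15402 genes, or 0.00649% of them, and all 3 rt-PA libraries agreed on it. ENSRNOG00000012067 was read at 23.1, 39.3 and 45.3 CPM (each count divided by the scaled size of its library) in saline 1, 2 and 3. In rt-PA 1, 2 and 3 it was read at 0.154, 0.381 and 0.0696 CPM, from 2, 5 and 1 counts. The lowest saline library was thus 60.8-fold above the highest rt-PA library, and the gene was close to silent in each rt-PA brain sample. It fell by 7.43 on the log2 scale (SE 0.56, edgeR quasi-likelihood test, Benjamini-Hochberg adjusted p = 0.00662). The summed counts, 1488 in saline and 8 in rt-PA, give a saline to rt-PA ratio of 180, after allowing for library totals, with an exact 95% interval of 90.9 to 417 that covers counting error only. The Nano-patrol+NIR libraries were also near 0 for this gene, at 0.373, 0.379 and 0.139 CPM, so a low level was not peculiar to the rt-PA libraries. The call was lost without rt-PA 1 (edgeR adjusted p = 0.118), without saline 2 (0.0566) or saline 3 (0.0519), with only the 6 libraries (0.0714) and with limma-voom (0.0507), at log2 differences of -7.43 to -7.20.

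The next genes missed the threshold together. In the edgeR test, 68 genes shared an adjusted p of 0.0594, of which 45 were higher in rt-PA, and the ranges of the 3 rt-PA and 3 saline libraries did not overlap for any of the 68. At an adjusted p under 0.1, edgeR held 264 genes (1.71% of those tested), 162 higher and 102 lower in rt-PA, again all without overlap between groups. Among all tested genes, 9.18% were higher and 10.3% lower in rt-PA without overlap. A small p and a lack of overlap come from the same libraries, so the overlap is not separate support for these genes. At an unadjusted p under 0.05 there were 1394 genes higher (9.05%) and 1227 lower (7.97%) in rt-PA.

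ENSRNOG00000025142 was the second gene of lower level in rt-PA. Its saline libraries read 26.7, 35.5 and 27.3 CPM and its rt-PA libraries 9.03, 10.5 and 9.18 CPM. The rt-PA libraries lay within a narrow band, all at least 2.54-fold below the lowest saline library. The Nano-patrol+NIR libraries were also below every saline library, at 16.4, 17.6 and 11.6 CPM. Saline averaged 29.8 ± 4.94 CPM and rt-PA 9.58 ± 0.813 CPM (SD, n = 3 each), with a log2 difference of -1.64, an SE of 0.22 and an edgeR adjusted p of 0.0594.

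Of the 2 genes printed for a higher level, ENSRNOG00000017897 read 12.96, 9.86 and 10.9 CPM in saline and 28.3, 33.1 and 32.7 CPM in rt-PA. All rt-PA libraries, rt-PA 3 included, were at least 2.19-fold above the highest saline library. They averaged 31.4 ± 2.65 CPM against 11.3 ± 1.57 CPM (SD, n = 3 each), and the log2 difference was 1.48, with an SE of 0.17 and an edgeR adjusted p of 0.0594. ENSRNOG00000007830 read 19.7, 17.3 and 18.3 CPM in saline and 73.2, 56.1 and 45.9 CPM in rt-PA. Here the rt-PA libraries differed more among themselves, with rt-PA 3 the lowest of the group and still 2.33-fold above the highest saline library. Saline averaged 18.4 ± 1.22 CPM and rt-PA 58.4 ± 13.8 CPM (SD, n = 3 each), with a log2 difference of 1.66, an SE of 0.20 and an edgeR adjusted p of 0.0594. The Nano-patrol+NIR libraries were also above every saline library at both genes. They read 24.8, 23.4 and 21.6 CPM for ENSRNOG00000017897 and 71.8, 62.2 and 57.4 CPM for ENSRNOG00000007830. The 4 printed genes were picked for their small p among genes without overlap, so the agreement of their libraries follows from the choice.

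**Figure D1:**
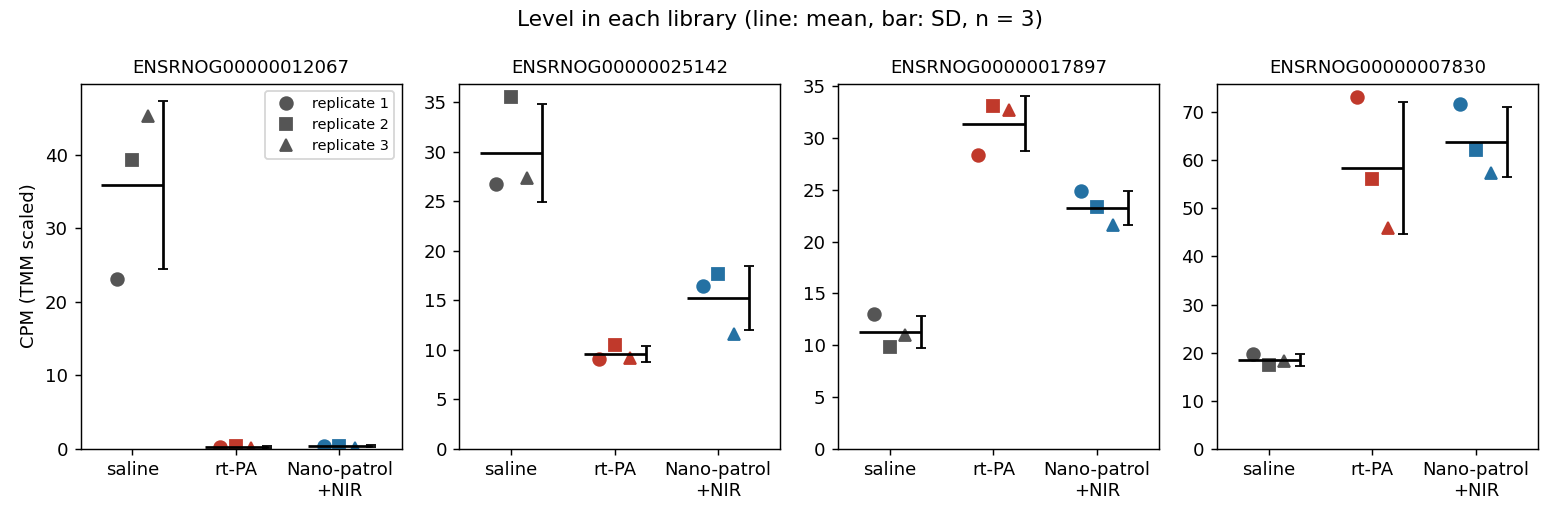
Level of the 4 printed genes in each library, in CPM on a linear axis from 0, for saline, rt-PA and Nano-patrol+NIR; symbols mark replicates, the line is the mean and the bar the SD of 3 libraries. The rt-PA libraries do not overlap the saline libraries for any of the 4 genes, and ENSRNOG00000012067 is at most 0.381 CPM in every treated library.

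Over all tested genes, agreement of the 3 rt-PA libraries was limited. All 3 lay above every saline library at 1414 genes (9.18%) and below every saline library at 1582 genes (10.3%). With relative log expression scaling these numbers were 1545 and 1460, so which direction was the larger depended on the scaling. Without rt-PA 3 they were 3768 and 3982, against 1680 to 1720 and 1875 to 1919 without either other rt-PA library, and without saline 1 they were 2874 and 3378. Some genes would lack overlap between 3 and 3 libraries with no difference between groups, and more would when a library is left out. Those shares were not estimated here, so the counts above do not by themselves measure agreement. The genes without overlap differed mostly by modest amounts, with a median log2 difference of 0.70 among the higher and -0.73 among the lower genes. At least 2-fold differences made up 469 of the higher (33.2%) and 506 of the lower genes (32.0%), and at least 4-fold differences 147 and 108. Less than 1.5-fold separated the groups at 598 and 612 of them. On the broader criterion of lying on the same side of the saline mean, the 3 rt-PA libraries agreed at 3387 genes above it (22.0%) and 3825 below it (24.8%), and were mixed at the other 8190 (53.2%). The number on 1 side, 7212 in all, was 12964 for rt-PA 1 and 2 alone and 8333 to 8529 for rt-PA 3 with 1 other library.

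The share of genes without overlap ranged, between rare and abundant transcripts, from 6.98% to 9.99% for higher and from 8.04% to 12.1% for lower genes over 4 classes of level. Among 931 genes averaging under 1 CPM, 6.98% were higher and 9.24% lower in all rt-PA libraries. Among 2302 genes of at least 100 CPM the shares were 9.25% and 8.04%. Without saline 1 they were 14.3% and 16.2% in the rarest class and 15.7% and 30.0% in the most abundant. rt-PA 3 lay 2-fold from both other rt-PA libraries at 30.1% of genes under 1 CPM and 27.0% of those from 1 to 10 CPM. The shares were 15.5% from 10 to 100 CPM and 16.4% in the most abundant class. Shares by class were not counted for rt-PA 1 and 2, and counting noise widens such gaps among rare transcripts.

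rt-PA 1 and rt-PA 2 moved together far more often than either did with rt-PA 3. Each rt-PA library taken alone lay outside the saline range at most genes, 61.3% for rt-PA 1, 65.6% for rt-PA 2 and 56.0% for rt-PA 3. Any further library would lie outside the range of 3 others at many genes with no difference between groups. These shares therefore do not measure an effect of rt-PA. rt-PA 1 and 2 without rt-PA 3 were above all saline libraries at 2354 genes and below them at 2400. The corresponding numbers were 306 and 293 for rt-PA 1 with 3, and 266 and 337 for rt-PA 2 with 3. rt-PA 3 was alone above the saline range at 2341 genes and alone below it at 2082, and at 1984 genes it lay on the opposite side of the saline range from both other rt-PA libraries. Without saline 1 the saline range was narrower, and the libraries lay outside it at 87.5%, 88.6% and 86.2% of genes. rt-PA 1 and 2 without rt-PA 3 were then above it at 2386 genes and below it at 2653. The numbers that join rt-PA 3 to 1 other library rose, to 588 and 542 for rt-PA 1 with 3. For rt-PA 2 with 3 they rose to 419 and 412. rt-PA 3 was alone above and below the range at 2776 and 2281 genes, and opposite to both others at 3722.

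**Figure D2:**
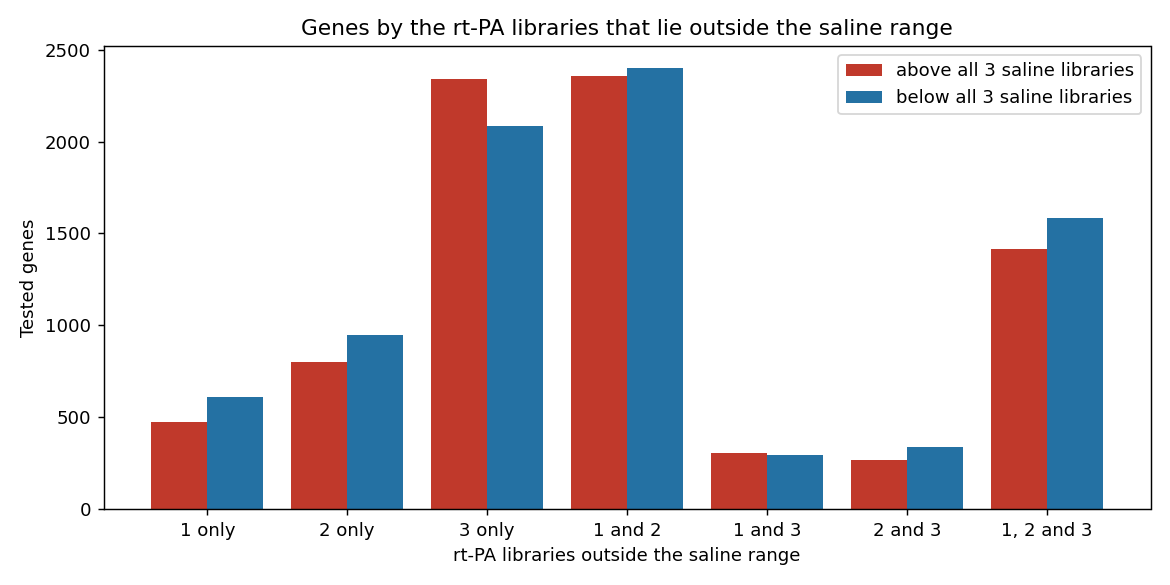
Number of tested genes (vertical axis) at which the rt-PA libraries named on the horizontal axis, and no other rt-PA library, lie above (red) or below (blue) all 3 saline libraries. The bars for rt-PA 3 only and for rt-PA 1 and 2 are the tallest, at 2082 to 2400 genes, and those that join rt-PA 3 to 1 other library the shortest, at 266 to 337.

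Each rt-PA library was then read at the genes that the other 2 placed outside the saline range by at least 2-fold from the saline mean. All these readings use the same saline libraries, which by itself favours agreement. rt-PA 1 lay outside the saline range on the same side at 95.3% of 235 higher genes and 85.4% of 309 lower genes. rt-PA 2 did so at 82.6% of 259 higher and 92.7% of 261 lower genes. rt-PA 3 shared the side at 42.9% of 946 higher genes and 42.9% of 902 lower genes. It lay within the saline range at 36.8% and 37.1%, and beyond it on the opposite side at 192 (20.3%) and 180 genes. The median log2 difference from saline at the higher genes was 1.68 in rt-PA 1 and 2 and 0.22 in rt-PA 3. At the lower genes it was -1.63 in rt-PA 1 and 2 and -0.28 in rt-PA 3. With saline 1 left out, rt-PA 3 shared the side at 62.5% of 1039 higher and 64.3% of 976 lower genes, and lay on the opposite side at 26.0% and 25.6%. The saline range was then narrower, and rt-PA 3 lay outside it at 86.2% of all tested genes, against 56.0% with all saline libraries. A narrower range by itself tends to raise both shares, by an amount not estimated here. In deviations from group means, rt-PA 3 correlated at 0.21 with saline 1 and at -0.18 and -0.185 with saline 2 and 3. For rt-PA 1 and 2 the values were -0.155 and -0.193 with saline 1, and 0.0833 to 0.203 with saline 2 and 3. Deviations within a group offset each other, so these values are not separate. What sets rt-PA 3 apart, and whether saline 1 shares it, was not tested.

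**Figure D3:**
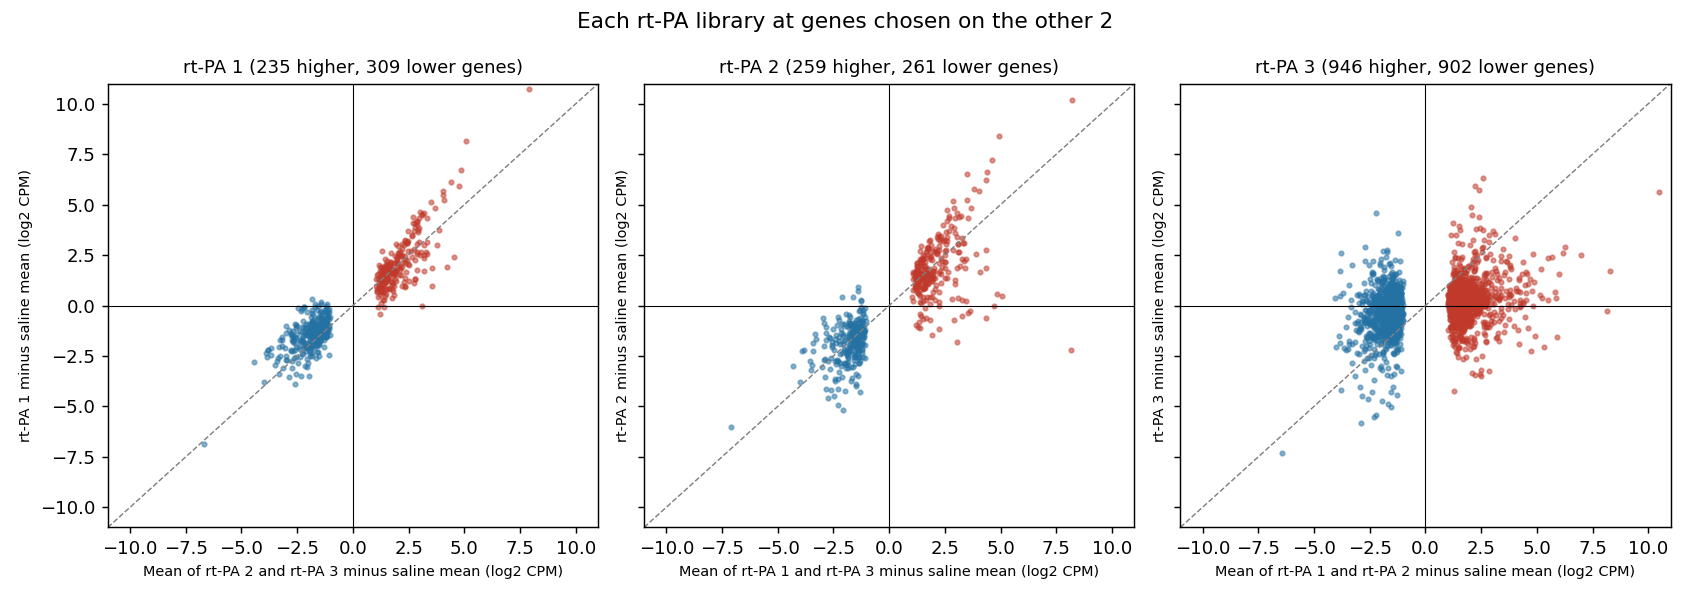
Difference from the saline mean (log2 CPM) of 1 rt-PA library, vertical axis, against the mean difference of the other 2, horizontal axis, at genes the other 2 placed at least 2-fold above (red) or below (blue) the saline mean and outside its range; 1 point per gene, dashed line of equality. Points for rt-PA 1 and rt-PA 2 follow the line, whereas points for rt-PA 3 spread around 0, with medians of 0.22 and -0.28.

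Upward differences of at least 16-fold were most frequent in rt-PA 1 and 2, and downward ones of that size in rt-PA 3. By at least 2-fold, rt-PA 1, 2 and 3 lay above the saline range at 1150, 1389 and 1074 genes. They lay as far below it at 1190, 1697 and 1031 genes, so rt-PA 3 then had the fewest. The prior count of 2 limits how far a gene rare in saline can fall. Genes at least 16-fold above the saline mean and outside its range numbered 48, 59 and 32 in rt-PA 1, 2 and 3, and genes as far below it 4, 19 and 23. Without saline 1 these numbers were 57, 67 and 46 above and 3, 19 and 40 below. At 39 genes both rt-PA 1 and rt-PA 2 exceeded the saline mean by at least 16-fold. Their median level was 59.9 CPM in these 2 libraries and 1.57 CPM in saline. In rt-PA 3 the same genes had a median of 3.06 CPM. It was above all saline libraries at 27 of the 39 genes, within their range at 7 and below them at 5, and it was 16-fold above the saline mean at 1. Its median log2 difference was 1.04, against 4.84 in rt-PA 1 and 2. Without saline 1 there were 47 such genes, of which rt-PA 3 was above the saline range at 37 and 16-fold above the saline mean at 4. Only 2 genes were at least 16-fold lower in both rt-PA 1 and 2. One of them was ENSRNOG00000012067, which rt-PA 3 shared, and at the other rt-PA 3 lay within the saline range. Of the 32 genes at least 16-fold higher in rt-PA 3, both other rt-PA libraries were above the saline range at 11 and neither was at 10. Of its 23 genes at least 16-fold lower, both others were below the saline range at 19 and neither was at 2.

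The number of genes past the threshold changed most with rt-PA 3. Without it, edgeR at an adjusted p under 0.05 held 1304 genes higher (8.32% of 15672 then tested) and 808 lower (5.16%) in rt-PA. Of the 1304, 1265 were among the genes tested with all libraries. rt-PA 3 had no part in the 1304 calls, though it entered the abundance filter that kept 1265 of them. It lay above the saline range at 41.5% of these 1265, within it at 32.8% and below it at 25.7%. Of the 808 lower genes it was below the saline range at 46.4%, within it at 27.0% and above it at 26.6%. Its median log2 difference from saline was 0.09 at the higher and -0.17 at the lower genes, against 1.17 and -1.24 in rt-PA 1 and 2. The calls made without rt-PA 3 thus describe rt-PA 1 and rt-PA 2, and at most of these genes rt-PA 3 was not beyond the saline range on the same side. Without saline 1 in its turn edgeR held 11 genes, 4 higher and 7 lower.

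DESeq2, which fits the spread of each gene differently, held 1062 genes at an adjusted p under 0.05 with all 9 libraries, 660 higher and 402 lower in rt-PA. The groups did not overlap at 538 of the 660 (81.5%) and at 388 of the 402 (96.5%), against 9.18% and 10.3% of all tested genes. Calls and overlap come from the same libraries, so these shares are not separate support for the calls.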

How the data were processed

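The authors deposited raw counts of reads in whole numbers, for Ensembl rat genes. RNA was extracted with Trizol and poly(A) selected, per the labels' protocols. Tools listed in the submitters' processing notes are HISAT2, StringTie 1.3.1, fastp 0.18.0 and Bowtie2 2.2.8, with no roles. The sources used here give no counting step, strand setting, genome build or annotation, so overlapping, antisense and near-identical genes cannot be told apart. Groups and replicates came from sample titles, and columns were matched through sample descriptions. Nothing says the libraries are separate animals, and the p-values reflect the spread between these samples alone, which may be technical.

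The test was run in edgeR 4.0.16 (R 4.3.3): filterByExpr, TMM scaling, all 9 libraries in 1 fit with a mean per group (6 residual degrees of freedom), robust quasi-likelihood F test, Benjamini-Hochberg adjustment over all tested genes. SE is the absolute log2 fold change over the root of F. Levels are TMM-scaled CPM, and log2 CPM used a prior count of 2. Libraries held 260 to 304 counts at the median tested gene in saline and rt-PA. Libraries of a group differed beyond counting noise, with chi-square over its degrees of freedom at 10.07 or more, and none was merged. Alternatives used DESeq2 1.42.0 and limma 3.58.1. The edgeR, DESeq2 and limma-voom fits of all 9 libraries were checked on simulated counts.

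The comparison, gene lists and tests were chosen with earlier results of these data known. The rule for named genes was every gene past the threshold, then 12 per direction by smallest p among genes with a symbol, at least 5 CPM on average and no overlap between groups, list members and set symbols. With 0 identifiers paired to a symbol, the symbol was waived and 2 genes per direction were printed, a change made after the values were seen.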

Additional observations from a re-analysis of the deposited data

How the results depend on the processing

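Calls at an adjusted p under 0.05 numbered 1 with edgeR, with relative log expression scaling, without a filter and with a filter of 1 CPM in 3 libraries. They numbered 1062 with DESeq2, 0 with limma-voom (1165 higher and 1219 lower at an unadjusted p under 0.05), 0 with only the 6 libraries (1065 and 941) and 264 at an adjusted p under 0.1. With the replicate block there were 0 (1127 and 1152 at an unadjusted p under 0.05). Same-numbered rt-PA and saline libraries correlated at -0.155, 0.203 and -0.185 in their deviations from group means, against -0.193 to 0.21 for unlike numbers. With 3 libraries a group and 1 apart in each, these values cannot settle whether the numbers pair the libraries. Fits that each omit 1 library gave 0 to 2112 calls, with the most for omitting rt-PA 3, 11 for omitting saline 1 and 2 for omitting Nano-patrol+NIR 3. At an unadjusted p under 0.05 they gave 933 to 2519 higher and 735 to 2261 lower genes, the highest again without rt-PA 3. Added after seeing the data, leaving out each of the 6 libraries gave 1680 to 3768 genes above and 1867 to 3982 below all saline libraries, as fewer libraries overlap less. The highest came without rt-PA 3, and without saline 1 the numbers were 2874 and 3378. Genes with all rt-PA libraries on 1 side of the saline mean numbered 7212, and 7353 to 12964 in these fits. The share of 2-fold genes of rt-PA 1 and 2 that rt-PA 3 shares was 44.1% to 62.5% for higher and 43.7% to 64.3% for lower genes when 1 saline library was left out. Leaving out a saline library also narrows the saline range. The cause of these values was not tested. The 4 printed genes kept their direction in all 16 alternatives each. ENSRNOG00000012067 passed the threshold in 10 of them (log2 difference -8.23 to -6.99), and its adjusted p with the replicate block was 0.0588. The other 3 passed in 2 or 3. The gene lists could not be run, for want of symbols. With 1 to 5 counts per rt-PA library, the fold of ENSRNOG00000012067 is limited by depth.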
